A study of Mus musculus with 3 samples.

Results

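Urea cycle and glutamine breakdown genes were described in liver RNA sequencing libraries of male C57BL/6 mice aged 14 weeks. The 9 genes were chosen by name among 41799 genes in the files, as the enzymes of the urea cycle (Cps1, Otc, Ass1, Asl and Arg1), the synthase of its activator (Nags), its ornithine carrier (Slc25a15), the liver glutaminase (Gls2) and glutamate dehydrogenase (Glud1). All 9 were found, and all 9 averaged at least 1 CPM (read counts scaled to a common library size). There were 3 libraries with 1 per group: high-fat diet with DfCS-Ib by gavage at 40 mg/kg (the DfCS-Ib library), high-fat diet alone (the HFD library) and regular chow (the chow library). The compound is known here only by this code and, from the series' text, as a sulfated oligosaccharide. The labels give 8 mice per group and the strain of all groups as C57BL/6, but not how many mice gave RNA to a library, how long the diets lasted, or whether the mice without DfCS-Ib were gavaged.

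The urea cycle turns ammonia, which is toxic, into urea for excretion, and it runs in full mainly in hepatocytes. Its first steps lie in the mitochondrion, where carbamoyl phosphate is made from ammonia and joined to ornithine to give citrulline; the later steps lie in the cytosol, where citrulline takes up aspartate and is cleaved in turn to arginine, ornithine and urea. Glutamine and glutamate breakdown release ammonia close to the first step, and the urea cycle is most active in hepatocytes around the portal vein.

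Because each group had 1 library, no difference has a replicate check: a comparison speaks of the libraries compared and not of the diets or the treatment, and no p-value was computed. The libraries held 10969699 counts (DfCS-Ib), 12279537 (HFD) and 11028671 (chow). Ranges in parentheses are 95% exact (Clopper-Pearson) intervals that cover counting error only. Hepatocyte markers were abundant, with summed levels of 153582 CPM (DfCS-Ib), 131272 CPM (HFD) and 169132 CPM (chow) over 9 of 10 listed genes, and all 9 were measured. In whole tissue, fewer cells of a type and less RNA per cell cannot be told apart.

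2 of the rows need care. The Cps1 row of the deposited files lies on a scaffold outside the main chromosomes, whereas RefSeq (GRCm38.p6) places the gene on chromosome 1 at 67122426 to 67231267. Its stated length of 11148 bases is 2.01 times the 5555 exonic bases of GENCODE M21, and the median of that ratio was 2.02 over 504 protein-coding rows on such scaffolds that have a GENCODE entry, against 1.01 over 19871 rows on the main chromosomes. Of 649 protein-coding rows off the main chromosomes, 9.40% had a mean of at least 1 CPM, against 53.0% of 21403 on them. The level of Cps1, a gene known for very high expression in liver, is therefore not comparable with the others here, and its differences describe only the reads counted on that row. The Asl row carries the name and gene number of adenylosuccinate lyase (Adsl), for which Asl is an older symbol, but its position (mm10 chromosome 5, 130011495 to 130024331, minus strand) is that of argininosuccinate lyase, the urea cycle enzyme. Adsl had its own row on chromosome 15 with 164 counts (DfCS-Ib), 216 counts (HFD) and 197 counts (chow), so the 2 genes were counted apart.

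Start sites of genes that lay apart in these libraries are shown to set their promoters side by side. RefSeq entries were found for 5 of the 9 members (Nags, Otc, Slc25a15, Ass1 and Glud1). Each entry holds the 250 bases before the start that RefSeq lists for it, and these are given 5′ to 3′ on the strand of the gene for Ass1 and Slc25a15, which were lowest in the HFD library, and for Otc and Glud1, which were highest in it. For Otc the first 175 of the 250 bases are shown, since the last 75 lie inside the RefSeq gene and the last 8 inside the gene of the deposited files. Capitals mark the GC box, GGGCGG or its reverse complement. Coordinates are of GRCm38.p6, in order chr2:31470020-31470269 (plus), chr8:22398622-22398871 (minus, the outer of 2 listed starts), chrX:10252055-10252229 (plus) and chr14:34310477-34310726 (plus).
Ass1: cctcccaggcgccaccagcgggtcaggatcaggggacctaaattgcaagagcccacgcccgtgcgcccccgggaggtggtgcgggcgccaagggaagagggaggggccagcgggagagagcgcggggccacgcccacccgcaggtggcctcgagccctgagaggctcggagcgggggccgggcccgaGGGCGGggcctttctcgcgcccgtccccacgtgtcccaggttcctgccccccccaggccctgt
Slc25a15: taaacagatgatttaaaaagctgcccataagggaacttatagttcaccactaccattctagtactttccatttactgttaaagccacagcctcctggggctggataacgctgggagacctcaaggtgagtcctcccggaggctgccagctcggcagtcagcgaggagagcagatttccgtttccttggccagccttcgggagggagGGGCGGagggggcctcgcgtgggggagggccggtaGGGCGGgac
Otc: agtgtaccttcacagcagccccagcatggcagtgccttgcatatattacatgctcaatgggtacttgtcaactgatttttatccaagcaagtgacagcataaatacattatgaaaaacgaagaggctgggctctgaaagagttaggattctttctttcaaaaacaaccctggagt
Glud1: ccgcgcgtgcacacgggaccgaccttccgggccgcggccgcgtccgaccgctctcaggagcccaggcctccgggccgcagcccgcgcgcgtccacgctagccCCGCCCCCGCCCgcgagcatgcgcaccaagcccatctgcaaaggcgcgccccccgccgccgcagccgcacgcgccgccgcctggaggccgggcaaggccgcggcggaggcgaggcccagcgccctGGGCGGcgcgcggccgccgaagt
A GC box stood in the windows of Ass1, Slc25a15, Glud1 and Nags and not in that of Otc, while 32.7% of 32851 mouse promoter windows of the same length held one. Both strands were also searched for other motifs. The TATA box, TATAAA, stood in 12.4% of all windows and the CCAAT box, spelled as named, in 33.8%. A part of the cyclic AMP response element, TGACG, stood in 17.8% and a C/EBP motif, TTGCNNAA, in 9.56%. A part of the glucocorticoid response element, TGTTCT, stood in 16.1% and the full HNF1 palindrome in 0.00913%. None of these other motifs stood in the 6 windows of the members. Bases G and C made up 75.6% of the window of Ass1, 57.6% of that of the outer start of Slc25a15, 43.6% of that of Otc and 82.0% of that of Glud1, against a median of 52.4% over all windows. The inner start of Slc25a15 lies inside the gene, and the 250 bases before it, which are not shown, held 5 GC boxes and 80.4% G and C, against 2 GC boxes before the outer start. A match or its absence describes these letters and not the binding of a factor.

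Levels between genes are compared per length, in RPKM as the authors give it. Cps1 aside, whose level is not comparable, Arg1, the arginase that releases urea, was the most abundant member in all 3 libraries. It had 1579 RPKM (DfCS-Ib), 1096 RPKM (HFD) and 2101 RPKM (chow), and stood at place 38 among all genes by its mean. Asl followed at 665 RPKM (DfCS-Ib), 282 RPKM (HFD) and 1058 RPKM (chow). Ass1, which joins citrulline and aspartate, came next in the DfCS-Ib and chow libraries. In the HFD library Glud1, with 315 RPKM, stood above both Asl and Ass1 (255 RPKM). The order of Asl and Ass1 in that library depended on the length used. With its shortest and longest GENCODE M21 transcripts Asl would have 251 and 190 RPKM there, and Ass1 would have 246 RPKM.

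Slc25a15, Gls2 and Otc lay close together, between 102 and 182 RPKM in all libraries except for Otc in the chow library, at 84.3 RPKM. Their order depended on the length used: the stated length of Otc is 4249 bases, while its GENCODE M21 transcripts have 2319 and 2997 bases, which would put it at 216 and 167 RPKM in the DfCS-Ib library, 239 and 185 RPKM in the HFD library and 154 and 119 RPKM in the chow library. Nags came after these, with 30.5 RPKM (DfCS-Ib), 36.2 RPKM (HFD) and 35.9 RPKM (chow). The row of Cps1 gave the lowest values, also with the GENCODE length, at 13.7, 9.13 and 19.6 RPKM in the same order of libraries. A change of length cannot make up for any reads not counted on that row, so the place of Cps1 among the members is not known.

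**Figure D1:**
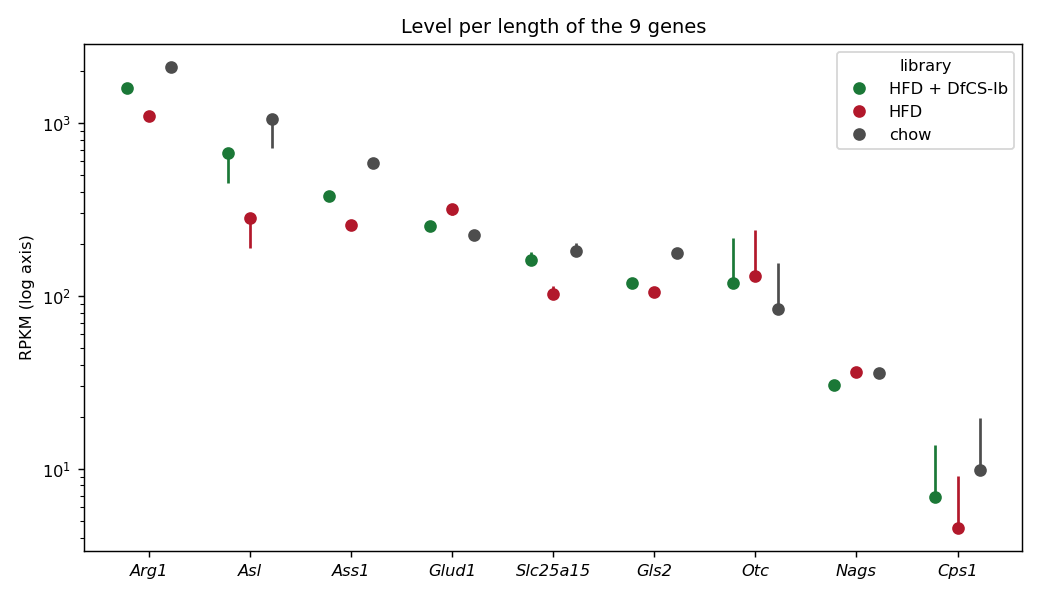
Level of the 9 genes in RPKM on a log axis, ordered by mean, in the DfCS-Ib (green), HFD (red) and chow (grey) libraries. Points use the stated gene length and lines reach the values with the shortest and longest GENCODE transcript. The level of Cps1 is not comparable with the others. Of the rest, Arg1 is highest in each library, and Asl lies from 282 (HFD) to 1058 (chow).

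The DfCS-Ib library was compared with the HFD library, which by its label differs in treatment on the same diet. Asl, the lyase that forms arginine, was higher in the DfCS-Ib library, and the ornithine carrier, both other cytosolic enzymes and Cps1 were higher by a smaller margin. Glud1, Nags and Otc were lower or close to level. At least 2-fold higher was 1 of 9 members (Asl), against 2.46% of all 13153 genes measured, and 0 of 9 were at least 2-fold lower, against 2.02%. At least 1.5-fold higher were 5 of 9 members, against 7.62% of all genes, and at least 1.5-fold lower were 0, against 7.16%. The 1.5-fold count depended on the scaling: without TMM factors, and likewise with the deposited RPKM, 2 of 9 (Asl and Slc25a15) were at least 1.5-fold higher, with Cps1, Ass1 and Arg1 below that limit. The median log2 ratio of CPM plus 1 was 0.63 over the 9 members and -0.01 over all genes.

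The HFD library was compared with the chow library, which by its label differs in diet. Cytosolic enzymes were lower in the HFD library, as were Cps1, the ornithine carrier and the liver glutaminase, while Otc and Glud1 were higher. At least 2-fold lower were 4 of 9 members (Asl, Ass1, Cps1 and Arg1), against 2.27% of all genes, and 0 were at least 2-fold higher, against 3.47%. At least 1.5-fold lower were 6 of 9, against 7.72%, and 0 were at least 1.5-fold higher, against 10.4% (1, Otc, without TMM factors or with the deposited RPKM). The median log2 ratio was -0.94 over the members and 0.02 over all genes. Arg1 and Cps1 lay near the 2-fold limit: without TMM factors the log2 ratio of Arg1 was -0.94, and with the deposited RPKM those of Arg1 and Cps1 were -0.94 and -0.96, so that the count was 3 and 2.

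The comparison of DfCS-Ib with chow set the treated animals on the fatty diet beside animals on the ordinary diet. At least 2-fold higher were 0 of 9 members, and 0 were lower by that much, against 1.62% and 0.433% of all genes. At least 1.5-fold lower were 3 of 9 (Ass1, Asl and Gls2), against 3.06%, and 0 were at least 1.5-fold higher, against 5.69%. The median log2 ratio was -0.41 over the members and 0.00277 over all genes. The 3 comparisons share libraries, so their values are set side by side and are not independent of each other.

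**Figure D2:**
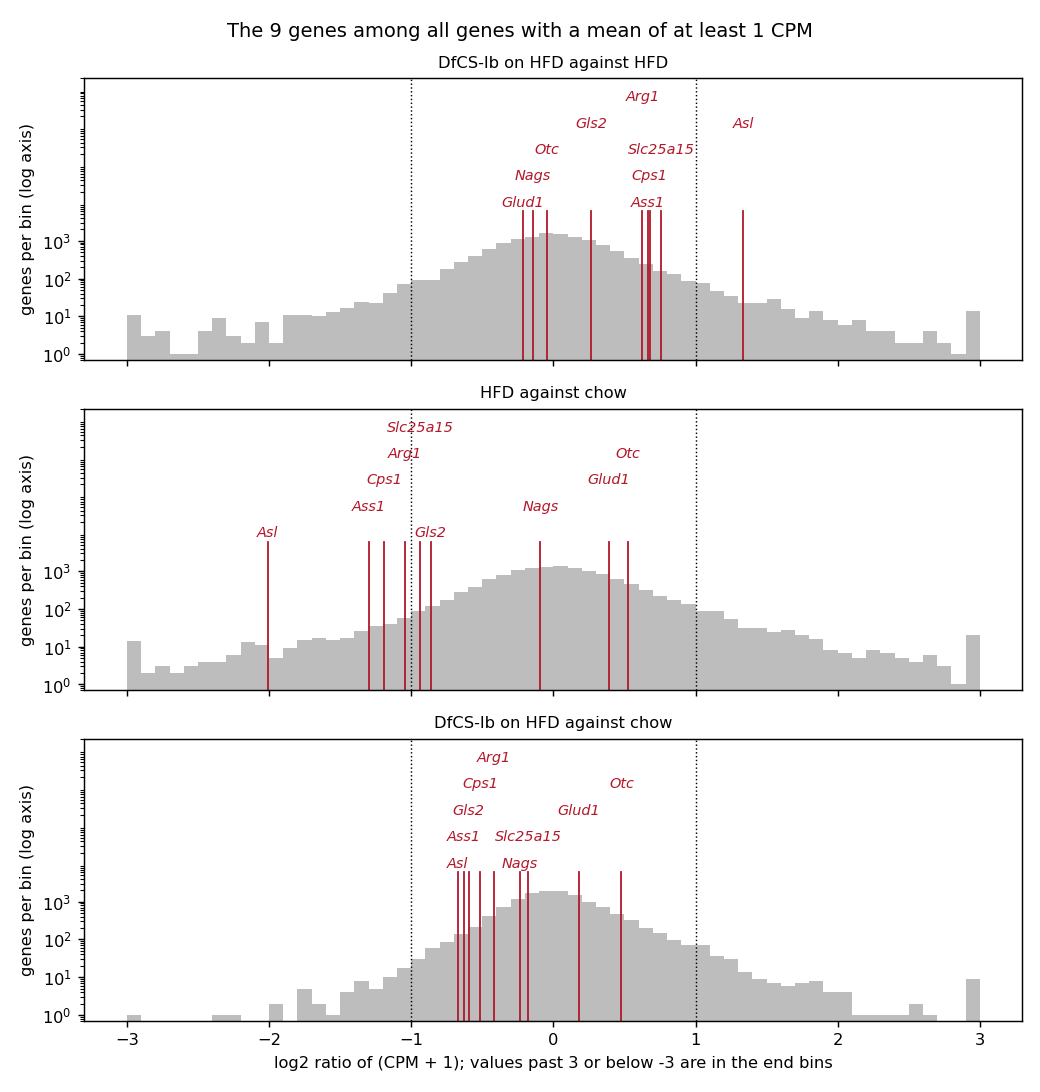
Log2 ratios of CPM plus 1 of the 9 genes (red lines) on the distribution over 13153 genes (grey, log axis of genes per bin of 0.1), for DfCS-Ib against HFD (top), HFD against chow (middle) and DfCS-Ib against chow (bottom); dotted lines mark 2-fold. Asl is at 1.34, -2.01 and -0.67 in these panels.

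The cytosolic enzymes shared 1 order of libraries, lowest in HFD and highest in chow. Asl had 11841 counts (1104 CPM) in the DfCS-Ib library, 5618 counts (437 CPM) in the HFD library and 18929 counts (1759 CPM) in the chow library. It was higher in the DfCS-Ib library than in the HFD library by 2.53-fold (2.45 to 2.61) and lower than in chow by 1.59-fold (1.56 to 1.63). The HFD library stood far below both others for this gene, at 24.8% of the chow level.

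Ass1 lies on chromosome 2 (31470270 to 31520670, plus strand). It had 6768 counts (631 CPM) in the DfCS-Ib library, 5117 counts (398 CPM) in the HFD library and 10525 counts (978 CPM) in the chow library. Its level in the DfCS-Ib library was 1.59-fold (1.53 to 1.65) that in the HFD library, and the HFD level was lower than chow by 2.46-fold (2.38 to 2.54). Ass1 thus kept the order chow, DfCS-Ib, HFD from high to low, and at 64.5% of chow the DfCS-Ib library covered 40.2% of the gap between HFD and chow.

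Arg1 lies on chromosome 10 (24915207 to 24927470, minus strand). It had 25586 counts (2385 CPM) in the DfCS-Ib library, 19871 counts (1544 CPM) in the HFD library and 34219 counts (3180 CPM) in the chow library. It was higher in the DfCS-Ib library than in the HFD library by 1.54-fold (1.52 to 1.57), and lower in the HFD library than in chow by 2.06-fold (2.02 to 2.10). A gene model on the opposite strand overlaps it, with 42 counts (DfCS-Ib), 55 counts (HFD) and 111 counts (chow); the strand setting of the counting is not given in the sources used here, so reads of the pair cannot be told apart. Summed over these 3 cytosolic enzymes, the share of all counts was 0.403% (0.399 to 0.407) in the DfCS-Ib library, 0.249% (0.246 to 0.252) in the HFD library and 0.577% (0.573 to 0.582) in the chow library.

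**Figure D3:**
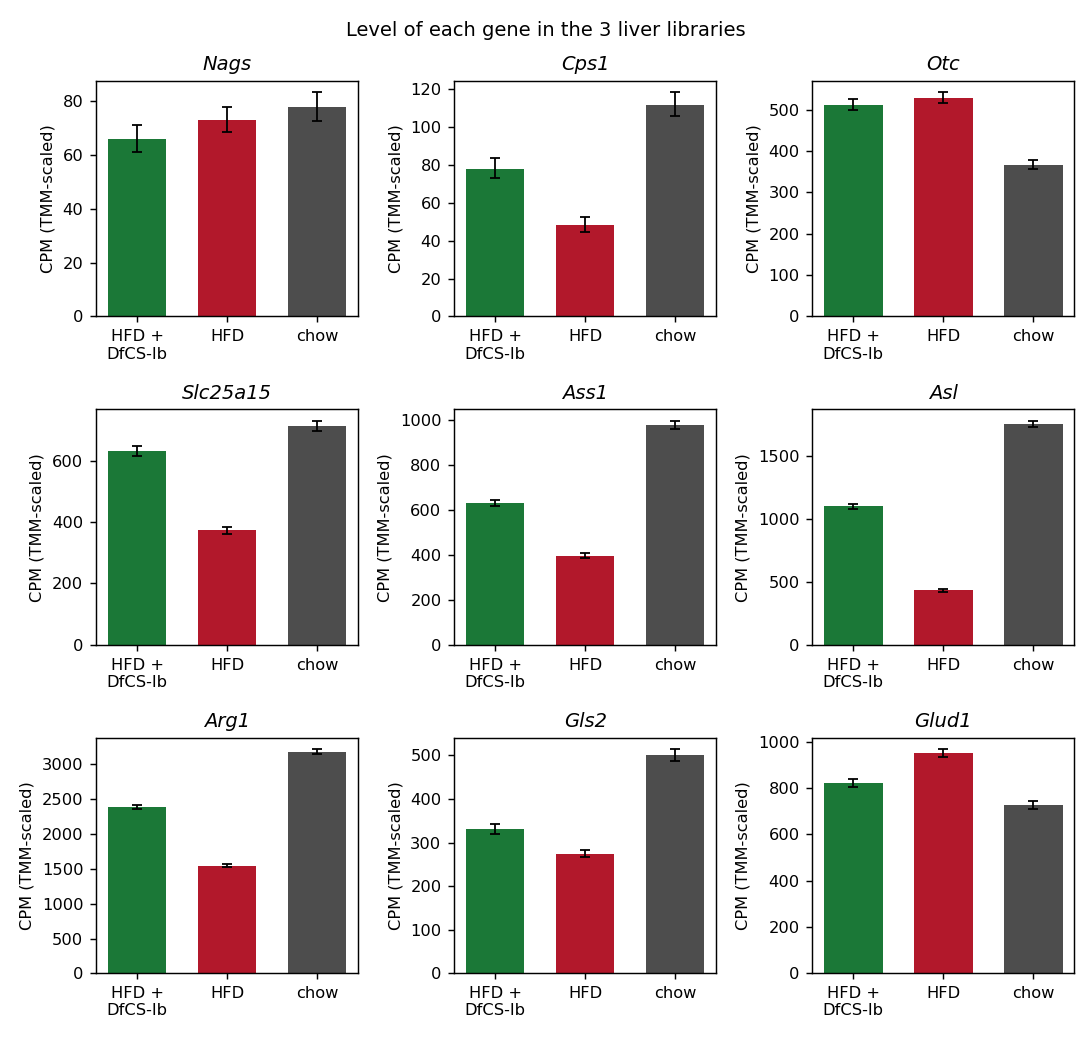
Level of each gene in TMM-scaled CPM in the DfCS-Ib, HFD and chow libraries (bars from 0, error bars are 95% exact Poisson intervals of the count). The HFD bar is the lowest for Cps1, Slc25a15, Ass1, Asl, Arg1 and Gls2 and the highest for Otc and Glud1.

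The mitochondrial steps of the cycle did not share a direction. Otc, the enzyme that forms citrulline (chromosome X, 10252297 to 10321024, plus strand), had 5492 counts (512 CPM) in the DfCS-Ib library, 6807 counts (529 CPM) in the HFD library and 3949 counts (367 CPM) in the chow library. Both libraries on the fatty diet were thus above chow, by 1.39-fold (1.34 to 1.45) with DfCS-Ib and 1.44-fold (1.39 to 1.499) without. Between these, the ratio of DfCS-Ib to HFD was 0.968 (0.934 to 1.003), an interval that holds 1.

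Slc25a15 exchanges cytosolic ornithine for mitochondrial citrulline and lies on chromosome 8 (22375550 to 22398621, minus strand). It had 6769 counts (631 CPM) in the DfCS-Ib library, 4792 counts (372 CPM) in the HFD library and 7677 counts (713 CPM) in the chow library. The DfCS-Ib level was 1.69-fold (1.63 to 1.76) the HFD level and reached 88.4% of chow, the highest share of chow among the 6 members that were lowest in the HFD library. The HFD level was lower than chow by 1.92-fold (1.85 to 1.99).

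Nags makes N-acetylglutamate, without which Cps1 is inactive, and lies on chromosome 11 (102145513 to 102149528, plus strand). It had 708 counts (66.0 CPM) in the DfCS-Ib library, 939 counts (73.0 CPM) in the HFD library and 837 counts (77.8 CPM) in the chow library. These levels were close: the ratio of HFD to chow was 0.938 (0.854 to 1.031) and that of DfCS-Ib to HFD 0.904 (0.819 to 0.998). The sign of the first depended on the scaling, with a log2 ratio of -0.09 in TMM-scaled CPM and 0.01 without TMM factors or with the deposited RPKM. A model on the opposite strand that overlaps Nags had 190 counts (DfCS-Ib), 217 counts (HFD) and 208 counts (chow).

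Cps1, which makes carbamoyl phosphate at the entry to the cycle, had 837 counts (78.0 CPM) in the DfCS-Ib library, 623 counts (48.4 CPM) in the HFD library and 1203 counts (112 CPM) in the chow library. On this row the DfCS-Ib level was 1.61-fold (1.45 to 1.79) the HFD level, and the HFD level was lower than chow by 2.31-fold (2.09 to 2.55). The order of the libraries was that of the cytosolic enzymes. Without Cps1 the median log2 ratio of the other 8 members was 0.45 for DfCS-Ib against HFD and -0.32 for DfCS-Ib against chow. Summed over the 4 mitochondrial genes, the share of counts was 0.126% (0.124 to 0.128) in the DfCS-Ib library, 0.107% (0.105 to 0.109) in the HFD library and 0.124% (0.122 to 0.126) in the chow library. Without the Cps1 row the share of the other 3 was 0.118% (0.116 to 0.120) in the DfCS-Ib library, 0.102% (0.1003 to 0.104) in the HFD library and 0.113% (0.111 to 0.115) in the chow library.

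**Figure D4:**
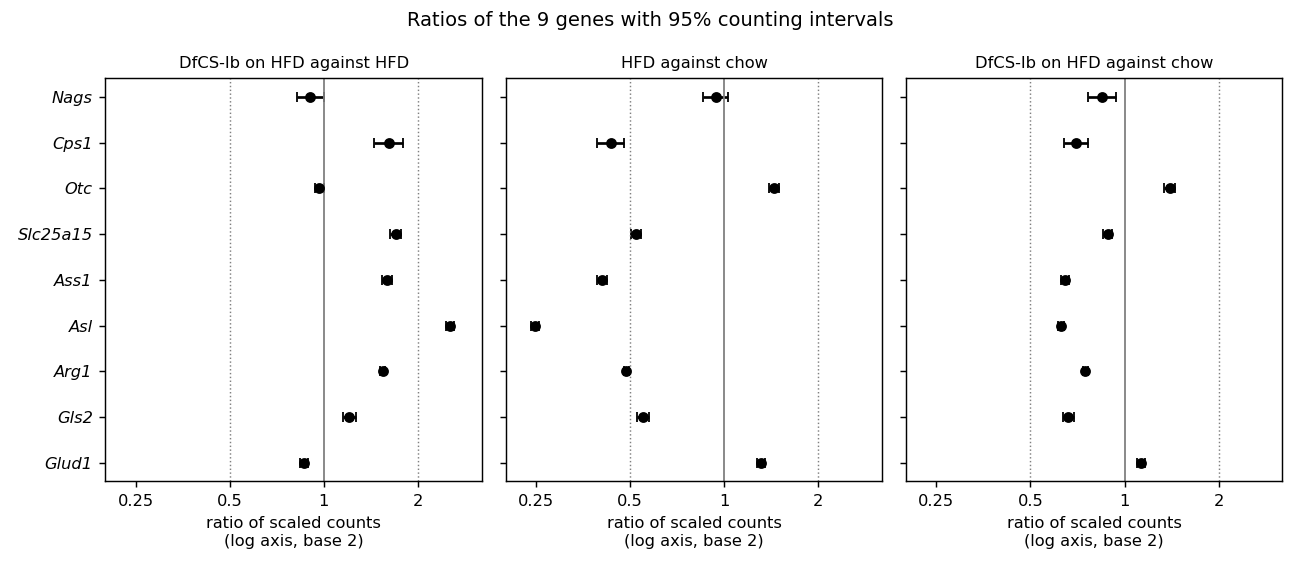
Ratio of scaled counts for each gene on a log axis, for DfCS-Ib against HFD (left), HFD against chow (middle) and DfCS-Ib against chow (right), with 95% exact counting intervals; the solid line is 1 and the dotted lines are 0.5 and 2. Asl is at 2.53, 0.248 and 0.627, and Otc is at 0.968, 1.44 and 1.39.

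The genes that release ammonia from glutamine and glutamate lay opposite ways. Gls2, the mitochondrial glutaminase of liver (chromosome 10, 128194635 to 128210004, plus strand), had 3554 counts (331 CPM) in the DfCS-Ib library, 3537 counts (275 CPM) in the HFD library and 5388 counts (501 CPM) in the chow library. The DfCS-Ib and HFD libraries were near each other, at a ratio of 1.21 (1.15 to 1.26), and the HFD level was lower than chow by 1.82-fold (1.75 to 1.90). Spryd4, on the opposite strand, overlaps Gls2 and had 285 counts (DfCS-Ib), 384 counts (HFD) and 288 counts (chow).

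Glud1 converts glutamate to ammonia and 2-oxoglutarate and back, and lies on chromosome 14 (34310727 to 34345033, plus strand). It had 8802 counts (820.4 CPM) in the DfCS-Ib library, 12230 counts (950.4 CPM) in the HFD library and 7808 counts (726 CPM) in the chow library. The HFD library was highest, 1.31-fold (1.27 to 1.35) above chow, and the ratio of DfCS-Ib to HFD was 0.863 (0.840 to 0.887). Per length, Glud1 stood at 2.16 times Gls2 in the DfCS-Ib library, 3.01 times in the HFD library and 1.26 times in the chow library. Their summed share of counts was 0.113% (0.111 to 0.115) in the DfCS-Ib library, 0.128% (0.126 to 0.130) in the HFD library and 0.120% (0.118 to 0.122) in the chow library.

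Glutamine synthetase, Glul, which works against the glutaminase and is confined to pericentral hepatocytes in normal liver, had 6886 counts (642 CPM) in the DfCS-Ib library, 7982 counts (620.3 CPM) in the HFD library and 5494 counts (511 CPM) in the chow library. The level of Gls2 per length was 0.527 times that of Glul in the DfCS-Ib library, 0.452 times in the HFD library and 1.001 times in the chow library.

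For 8 of the 9 members the DfCS-Ib library lay between the HFD and chow libraries, which was so for 43.4% of all genes measured. Nags was the exception, with its lowest level in the DfCS-Ib library. For Otc the counting interval of DfCS-Ib to HFD (0.934 to 1.003) holds 1, so the order of these libraries is within counting error for it. For Nags the same interval ends at 0.998, close to 1. With 1 library per group, the order has no replicate check for any member. The part of the distance from HFD to chow that the DfCS-Ib library covered was 75.8% for Slc25a15, 57.8% for Glud1, 51.4% for Arg1, 50.4% for Asl, 46.7% for Cps1, 40.2% for Ass1, 25.0% for Gls2 and 10.5% for Otc. Together the 9 genes took 0.641% (0.637 to 0.646) of the counts in the DfCS-Ib library, 0.485% (0.481 to 0.489) in the HFD library and 0.821% (0.816 to 0.826) in the chow library. These shares include the Cps1 row, whose level is not comparable with the others.

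Among themselves the members differed in how far the libraries lay apart. The highest library was 4.03 times the lowest for Asl, 2.46 times for Ass1, 2.31 times for Cps1 and 2.06 times for Arg1, and between 1.18 times (Nags) and 1.92 times (Slc25a15) for the rest. The median pattern of the members, as log2 values centred over the 3 libraries, was 0.05 in DfCS-Ib, -0.56 in HFD and 0.49 in chow. Arg1 was nearest to it, at a distance of 0.0160, and Otc and Glud1 farthest, at 1.11 and 1.02.

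Among 7704 other genes that averaged at least 10 CPM, 76 (0.987%) lay within a distance of 0.2 of this median pattern. The nearest were Foxa3 (0.0349), a forkhead transcription factor gene of liver, As3mt (0.0542), which methylates arsenic, Heca (0.0615), Micall1 (0.0660) and Crat (0.0672), the carnitine acetyltransferase. Foxa3 measured 58.9 CPM (DfCS-Ib), 37.0 CPM (HFD) and 78.0 CPM (chow). With only 3 libraries, many genes can share such a pattern.

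The neighbouring genes of nitrogen handling were taken from 4 lists with 41 genes, of which 36 were measured. At least 2-fold higher in the DfCS-Ib than in the HFD library were 9 of 36, against 2.46% of all genes, and at least 2-fold lower 0, against 2.02%, with a median log2 ratio of 0.43. With the deposited RPKM the count of 9 was 5, and the count of 324 over all genes was 176. In the HFD library against chow, 1 passed 2-fold upward and 8 downward, against 3.47% and 2.27% of all genes, with a median of -0.40. In the DfCS-Ib library against chow, 1 passed 2-fold upward and 0 downward, against 1.62% and 0.433%, with a median of 0.02. The medians over all genes were -0.01, 0.02 and 0.00277.

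Enzymes of glutamate, ornithine and ammonia use held 11 measured genes of 14, with 3 at least 2-fold higher in DfCS-Ib against HFD (2.46% of all genes) and 4 at least 2-fold lower in HFD against chow (2.27% of all genes). Got1, the cytosolic aspartate aminotransferase, had 7513 counts (DfCS-Ib), 2430 counts (HFD) and 13412 counts (chow), and was higher in DfCS-Ib than in HFD by 3.71-fold (3.54 to 3.88) and lower in HFD than in chow by 6.60-fold (6.32 to 6.89). Got2, its mitochondrial counterpart, had a log2 ratio of -0.20 in DfCS-Ib against HFD and 0.01 in HFD against chow. Oat, the ornithine aminotransferase, had 19534 counts (DfCS-Ib), 10638 counts (HFD) and 22139 counts (chow), a ratio of 2.20 (2.15 to 2.26) of DfCS-Ib to HFD. Gpt2, the mitochondrial alanine aminotransferase, was higher in DfCS-Ib than in HFD by 1.78-fold (1.71 to 1.84) and lower in HFD than in chow by 2.23-fold (2.16 to 2.31). Asns, which makes asparagine from aspartate with nitrogen from glutamine, had few reads, with 69 counts (DfCS-Ib), 33 counts (HFD) and 128 counts (chow).

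Mitochondrial carriers and suppliers of substrate held 6 measured genes of 8. The glutamate carrier Slc25a22 had 4736 counts (DfCS-Ib), 1573 counts (HFD) and 4527 counts (chow), higher in DfCS-Ib than in HFD by 3.61-fold (3.41 to 3.83). Slc25a13 (citrin), which exports the aspartate used by Ass1, differed less than Slc25a22 and was lowest in the HFD library once scaled. It had 3456 counts (322 CPM) in DfCS-Ib, 3522 counts (274 CPM) in HFD and 3361 counts (312 CPM) in chow. Its ratio of DfCS-Ib to HFD was 1.18 (1.12 to 1.23) and that of HFD to chow 0.876 (0.836 to 0.919). Car5a, the mitochondrial carbonic anhydrase that supplies bicarbonate to Cps1, lay the other way, with 446 counts (DfCS-Ib), 889 counts (HFD) and 250 counts (chow). It was 2.97-fold (2.58 to 3.44) higher in HFD than in chow, and the ratio of DfCS-Ib to HFD was 0.602 (0.536 to 0.675).

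Of 7 transporters of the plasma membrane, 2 were at least 2-fold higher in DfCS-Ib against HFD (2.46% of all genes) and 1 at least 2-fold lower in HFD against chow (2.27%). Slc7a2, a carrier of arginine and other cationic amino acids, had 18402 counts (DfCS-Ib), 6505 counts (HFD) and 17381 counts (chow), a ratio of 3.39 (3.30 to 3.49) of DfCS-Ib to HFD. Slc1a2, a glutamate transporter, had a ratio of 2.08 (1.97 to 2.21) for the same pair. The glutamine transporter Slc38a3 was level, with log2 ratios of -0.05 for DfCS-Ib against HFD and 0.01 for HFD against chow.

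Among 12 regulators of urea cycle genes, 3 were at least 2-fold higher in DfCS-Ib against HFD (2.46% of all genes) and 2 at least 2-fold lower in HFD against chow (2.27%). Cebpb, a C/EBP factor, had 2016 counts (DfCS-Ib), 726 counts (HFD) and 771 counts (chow), and the DfCS-Ib library was above both others, by 3.33-fold (3.06 to 3.63) and 2.62-fold (2.41 to 2.85). Ppargc1a, a coactivator of fasting metabolism, had 328 counts (DfCS-Ib), 143 counts (HFD) and 362 counts (chow). Foxo1, a transcription factor that insulin inhibits, was lower in HFD than in chow by 2.03-fold (1.82 to 2.28), and Ppara was higher in DfCS-Ib than in HFD by 2.15-fold (2.06 to 2.24). Cebpa, Nr3c1 (the glucocorticoid receptor) and Gcgr (the glucagon receptor) had log2 ratios of -0.14, -0.24 and -0.12 for DfCS-Ib against HFD and 0.42, 0.56 and 0.32 for HFD against chow.

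**Figure D5:**
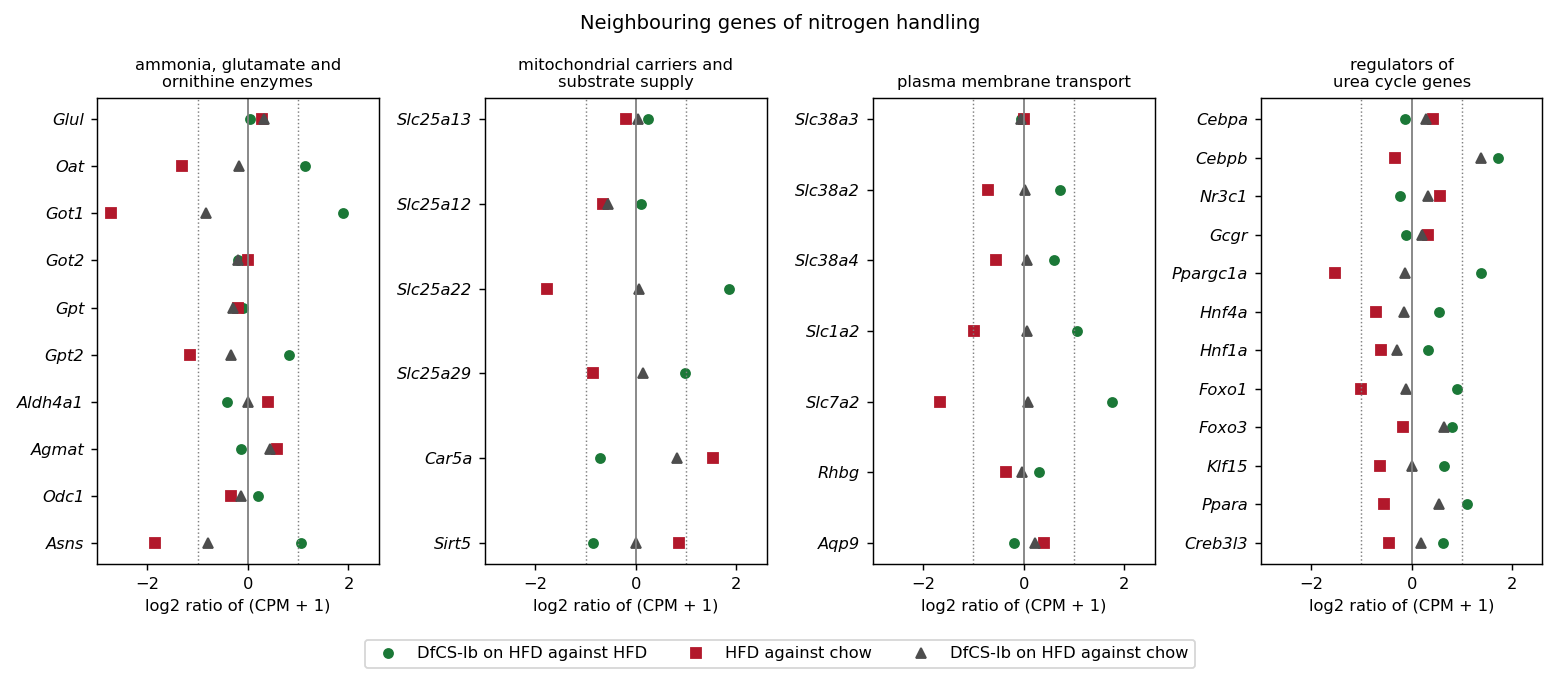
Log2 ratios of CPM plus 1 for 35 of the 36 measured genes of the 4 neighbouring lists, for DfCS-Ib against HFD (green circles), HFD against chow (red squares) and DfCS-Ib against chow (grey triangles); dotted lines mark 2-fold. Got1, Slc25a22 and Slc7a2 are the farthest to the right among the green circles, and Car5a the farthest to the right among the red squares.

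Markers of hepatocytes, of liver zones and of other cells are given beside these results. The median log2 ratio of the 9 hepatocyte markers was 0.37 in DfCS-Ib against HFD, -0.31 in HFD against chow and 0.10 in DfCS-Ib against chow. Of these 9, 2 were at least 2-fold higher and 0 lower in DfCS-Ib against HFD. In HFD against chow, 0 were higher and 1 lower by that much. Of 12 periportal markers outside the member list, 2 were at least 2-fold higher and 0 lower in DfCS-Ib against HFD (median log2 ratio 0.13), and 0 were higher and 3 lower in HFD against chow (median -0.13). Of 12 pericentral markers, 4 of which also stand in the neighbouring lists, 2 were at least 2-fold higher and 1 lower in DfCS-Ib against HFD (median 0.09), and 4 were higher and 1 lower in HFD against chow (median 0.54). Over all genes the shares were 2.46% higher and 2.02% lower in DfCS-Ib against HFD, and 3.47% higher and 2.27% lower in HFD against chow. Macrophage and Kupffer cell markers were above 1 in 8 of 8 cases for DfCS-Ib against HFD, against 48.5% of all genes. Their summed levels were 614 CPM (DfCS-Ib), 345 CPM (HFD) and 281 CPM (chow). Measured markers above 1 for the same pair were 7 of 7 (endothelial), 7 of 9 (hepatocyte), 8 of 12 (periportal) and 7 of 12 (pericentral). They were 4 of 7 (stellate cell), 4 of 5 (erythroid) and 1 of 4 (cholangiocyte). Endothelial markers summed to 469, 387 and 459.9 CPM, stellate cell markers to 383, 274 and 323 CPM, cholangiocyte markers to 40.8, 53.9 and 41.6 CPM, erythroid markers to 125, 149 and 90.0 CPM and lymphocyte markers to 1.58, 1.79 and 1.86 CPM in DfCS-Ib, HFD and chow, and Cpa1, Pnlip, Amy2a1 and Ctrb1 of the 5 exocrine pancreas markers were listed at 0 in all libraries. The fifth, Cela1, was lower in DfCS-Ib than in HFD and higher in HFD than in chow, with 57 counts (5.31 CPM) in DfCS-Ib, 170 counts (13.2 CPM) in HFD and 36 counts (3.35 CPM) in chow, log2 ratios of -1.17 and 1.71. The part of cell composition and zonation in the differences of the members was not tested.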

How the data were processed

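RNA sequencing of total RNA from liver was analysed for 3 libraries with 1 per group. Per the submitters' processing notes, reads were aligned with TopHat2 to mm10. How reads were counted (tool, strand, reads that align in several places) and on which annotation is not given in the sources used here. The authors deposited, per the file headers, read counts for 41799 genes and RPKM. The RPKM given by the authors equalled the count divided by the stated length and the library's total, with a largest deviation of 0.000506% among genes of 100 or more counts.

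CPM were computed from the deposited counts with TMM factors of 0.978 (DfCS-Ib), 1.05 (HFD) and 0.976 (chow) from edgeR 4.0.16 in R 4.3.3. The 13153 genes averaging at least 1 CPM formed the background. The 2-fold and 1.5-fold counts and the medians use log2 ratios of CPM plus 1, which understate differences of genes with few reads. Folds of single genes add no pseudocount, and their exact intervals come from the share that 1 library holds of the gene's 2 counts (scipy 1.17.1). These calculations were tested on simulated counts that held counting error only, so that test does not cover the spread between animals. No molecular identifiers are named, so copies of 1 molecule may have been counted more than once. The intervals cover counting error only and may be too narrow even for that.

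The members and lists were chosen with earlier results of these data known, and nothing here is independent support for those results. The text names all 9 members, Glul, Slc25a13 and Car5a, and up to 4 genes per neighbouring list that passed 2-fold in any comparison, the largest first; Got2, Slc38a3, Cebpa, Nr3c1, Gcgr and Adsl were added after their values were seen. For 1 gene of the neighbouring lists, which enters their counts and medians, no value is reported here. The 5 genes most like the members had the smallest Euclidean distance between centred log2 values of CPM plus 1. Adgre1 was matched by its older symbol Emr1. Promoters are from RefSeq (GRCm38.p6), and transcript lengths from GENCODE M21 (basic set). Alternatives were CPM without TMM factors, DESeq2 1.42.0 size factors, the deposited RPKM, the 50 most abundant genes left out of the scaling, pseudocounts of 0.1 and 5, no filter and a filter of 10 CPM, and 1.5-fold; leaving out Cps1, the use of GENCODE lengths and the 1.5-fold counts under the other scalings were chosen after seeing the data.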

Additional observations from a re-analysis of the deposited data

How the results depend on the processing

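No paired analysis was possible because each group had 1 library, and no library could be left out. Of 27 member log2 ratios (9 genes in 3 comparisons), 26 kept their sign under all 8 alternatives tried for them. The exception, Nags in HFD against chow, is given above. Filters and pseudocounts cannot change the sign of a member's ratio, so only the changes of scaling bear on this count. DESeq2 size factors and leaving out the 50 most abundant genes from the scaling moved no count by over 1.5 times. Without TMM factors the median log2 ratio of all genes was -0.10 for DfCS-Ib against HFD and 0.11 for HFD against chow, and that of the members 0.53 and -0.83; with the deposited RPKM the members' medians were 0.50 and -0.83, and 2 members were at least 2-fold lower in HFD against chow. Without Cps1 the medians were 0.45 for DfCS-Ib against HFD and -0.32 for DfCS-Ib against chow. The order of libraries for the 8 members with DfCS-Ib between the others held under every scaling tried, with 7 of the other 8 members without Cps1. A pseudocount cannot change that order, and for Otc it is within counting error, as given above.

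At 1.5-fold in place of 2-fold, 5 of 9 members were higher in DfCS-Ib against HFD (2 without TMM factors and 2 with RPKM), against 7.62% of all genes. In HFD against chow, 0 were higher (1 without TMM factors and 1 with RPKM), against 10.4%, and 6 were lower, against 7.72%. In DfCS-Ib against chow, 3 were lower, against 3.06%. Of the 36 neighbouring genes measured, 17 were then higher and 2 lower in DfCS-Ib against HFD, against 7.62% and 7.16% of all genes. In HFD against chow 2 were higher and 15 lower, against 10.4% and 7.72%. In DfCS-Ib against chow 3 were higher and 2 lower, against 5.69% and 3.06%. With RPKM, 5 were at least 2-fold higher in DfCS-Ib against HFD, as were 176 of all genes. Counts over all genes moved with the settings as follows. In DfCS-Ib against HFD, higher genes numbered 176 with RPKM, 507 and 166 with pseudocounts of 0.1 and 5, 203 with a mean of at least 10 CPM and 1002 at 1.5-fold, and lower genes 407 and 128 with those pseudocounts, 140 with that filter and 942 at 1.5-fold. In HFD against chow, higher genes numbered 704 and 230 with the pseudocounts, 261 with the filter and 1370 at 1.5-fold, and lower genes 166 with RPKM, 464 and 164 with the pseudocounts, 185 with the filter and 1015 at 1.5-fold. In DfCS-Ib against chow, higher genes numbered 125 with RPKM, 413 and 82 with the pseudocounts, 110 with the filter and 748 at 1.5-fold, and lower genes 31 with RPKM, 170 and 21 with the pseudocounts, 25 with the filter and 402 at 1.5-fold. Among the members, counts were lowest for Cps1 and Nags, and among the neighbouring genes Slc25a29 (45 counts in DfCS-Ib, 21 in HFD and 40 in chow) and Asns had fewer still; the spread between animals is not known for any gene.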

Other observations

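The mismatch of name and number on the Asl row was not unique in the deposited files. Of 32905 rows whose symbol and gene number both stand in the RefSeq gene table (GRCm38.p6), 291 carried the number of a gene other than their symbol, and 142 of these had a mean of at least 1 CPM. Among the rows of high level, that of Fbp1, which encodes the liver fructose bisphosphatase, carried the number of Fbp2, and that of Cyp1a2 carried the number of Cyp1a1. These examples were chosen after the rows were seen. The scaffold that holds the Cps1 row has 6 rows in all, and 3 of them had at least 1 count in any library.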
